A study of Mus musculus with 6 samples.

Results

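The 32 type I interferon-stimulated genes described here were taken by name from a fixed list and were all found among the 40879 genes of the count table. They fall into 5 IFIT genes, 5 OAS genes, 7 nucleic acid sensors, 3 genes of the ISG15 system and 12 other members. The helicase gene Rigi was listed in the table under that name. Poly-A RNA was sequenced from CD8 T cells sorted out of MC38-hPD-L1 tumours, grown from a mouse colon carcinoma line, in C57BL/6N mice. The Biotin+ cells are tumour-neighbouring by the labels, and the Biotin- cells tumour-distal. There were 3 libraries of each, all from tumours on day 12. The groups share strain, tumour line, day and the CD8 sort, so that biotin status is the one difference in the labels. Their cell type marker levels also differed, as given below. The comparison asks what distinguishes CD8 T cells that carry the proximity label, a biotin tag placed on cells close to a marked neighbour, from those that do not. Whether a replicate is 1 animal or a pool is not given in the sources used here, so the p-values reflect variation among these libraries alone, which may be technical.

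Type I interferons are secreted when a cell senses foreign or misplaced nucleic acid, and they bind a shared receptor of the chains IFNAR1 and IFNAR2. The receptor's kinases JAK1 and TYK2 phosphorylate STAT proteins, STAT2 among them, which join IRF9 into a complex that binds the interferon-stimulated response element (ISRE) in target promoters. In T cells the outcome of this signal is known to depend on its timing relative to antigen, from support of expansion and survival to restraint of function. In tumours, interferon is known to come largely from dendritic cells and other myeloid cells, and the response genes can be read in every cell type of the tissue.

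The promoters show what the members share in sequence. RefSeq windows on GRCm38.p6, 250 bases before to 50 bases after a transcript start, were held for 24 of the 32 members. At least 1 window held the ISRE letters GAAANNGAAA or, on the other strand, TTTCNNTTTC in 16 of these 24 (66.7%), against 3.99% of all 27025 genes with a window. All 5 sensors with a window had the letters, as did 4 of 5 IFIT genes, 2 of 4 OAS genes, 1 of 2 genes of the ISG15 system and 4 of 8 other members. The letters TTCNNNGAA, which read the same on both strands and stand for the interferon gamma activated site, were in 4 of the 24 (16.7%) and in 9.55% of all genes. The 5 promoters printed here are those of Ifit1, Ifih1 and Bst2, which passed 1 fit, Oasl2, which passed both and has no ISRE letters, and Isg15, which passed neither and has the most. Isg20 also passed both fits and has no ISRE letters in its windows, which are not printed. Capitals mark the ISRE letters, each sequence runs 5′ to 3′ on the strand of its gene, and overlapping matches run into each other.
Ifit1, chr19:34640639-34640938, plus strand: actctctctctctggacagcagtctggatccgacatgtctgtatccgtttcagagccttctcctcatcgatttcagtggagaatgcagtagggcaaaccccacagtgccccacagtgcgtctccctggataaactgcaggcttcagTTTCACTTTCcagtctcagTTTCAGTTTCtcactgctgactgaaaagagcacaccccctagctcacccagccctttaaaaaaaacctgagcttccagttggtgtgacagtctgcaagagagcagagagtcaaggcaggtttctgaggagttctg
Oasl2, chr5:114896684-114896983, plus strand: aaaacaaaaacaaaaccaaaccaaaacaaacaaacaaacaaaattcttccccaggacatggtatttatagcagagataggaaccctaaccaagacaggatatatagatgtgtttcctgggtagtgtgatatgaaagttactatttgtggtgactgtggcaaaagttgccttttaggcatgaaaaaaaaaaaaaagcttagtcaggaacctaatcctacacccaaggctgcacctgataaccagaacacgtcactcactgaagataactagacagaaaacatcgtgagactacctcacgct
Ifih1, chr2:62646206-62646505, minus strand: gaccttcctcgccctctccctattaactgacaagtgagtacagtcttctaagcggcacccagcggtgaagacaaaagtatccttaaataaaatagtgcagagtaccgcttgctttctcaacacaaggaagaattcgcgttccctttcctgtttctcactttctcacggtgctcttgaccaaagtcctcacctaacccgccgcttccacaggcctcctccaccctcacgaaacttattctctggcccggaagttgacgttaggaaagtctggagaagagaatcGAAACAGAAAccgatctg
Bst2, chr8:71537423-71537722, minus strand: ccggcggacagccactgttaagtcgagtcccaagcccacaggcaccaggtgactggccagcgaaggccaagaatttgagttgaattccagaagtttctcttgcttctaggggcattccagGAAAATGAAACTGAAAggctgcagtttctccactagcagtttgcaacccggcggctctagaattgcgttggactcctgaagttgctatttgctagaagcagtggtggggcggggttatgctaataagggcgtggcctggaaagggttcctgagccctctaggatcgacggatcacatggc
Isg15, chr4:156200769-156201068, minus strand: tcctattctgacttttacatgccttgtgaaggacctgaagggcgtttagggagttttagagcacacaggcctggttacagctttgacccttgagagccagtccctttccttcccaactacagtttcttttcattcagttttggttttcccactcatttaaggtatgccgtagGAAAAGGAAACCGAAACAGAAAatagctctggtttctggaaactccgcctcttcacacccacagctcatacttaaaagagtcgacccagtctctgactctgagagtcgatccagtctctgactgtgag
In Ifit1 the matches began 104 and 85 bases before the start. In Bst2 they began 130 and 124 bases before it, and in Isg15 at 78, 72 and 66 bases before it. The single match of Ifih1 began at base 33 of the transcribed part, with the start as the first base. These matches are letters in a window, not measured binding.

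The libraries held 16440614 to 19640693 counts in Biotin+ and 16423106 to 19035864 in Biotin-. Values below are CPM, counts brought to a common library size with TMM scaling factors, given with the mean and SD of 3 libraries. The sort marker Cd8a had 1226 ± 63.6 CPM in Biotin+ and 653 ± 189 CPM in Biotin-, and all 15 CD8 T cell identity genes had a positive log2 fold change, Biotin+ over Biotin-, of which 5 passed the test with the group alone and 11 with the replicate number as a block. Summed over those 15 genes, the libraries had 8277 to 10751 CPM in Biotin+ and 4372 to 6271 CPM in Biotin-. Markers of fibroblasts and endothelium summed to 99.0 to 210 CPM in Biotin+ and 714 to 1013 CPM in Biotin-, and 5 of the 9 tested passed as lower with the group alone and 7 with the block. Macrophage and monocyte markers summed to 300 to 865 CPM in Biotin+ and 645 to 2398 CPM in Biotin-, and none of the 10 passed in edgeR's quasi-likelihood test with the group alone (2 lower at an unadjusted p under 0.05, 3 lower with the replicate number as a block). Markers of dendritic cells and MHC class II (570 to 1465 CPM in Biotin+, 523 to 1465 CPM in Biotin-), plasmacytoid dendritic cells (65.4 to 118 CPM in Biotin+, 60.1 to 108 CPM in Biotin-) and neutrophils (6.84 to 20.4 CPM in Biotin+, 9.59 to 13.1 CPM in Biotin-) had sums that overlapped between the groups. Of the 7 plasmacytoid markers tested, Il3ra passed as higher and Tcf4 as lower with the group alone, and Siglech also as lower with the block. The block also called 1 gene of the dendritic cell list higher, and none of the 4 neutrophil markers tested passed in either edgeR fit (1 lower at an unadjusted p under 0.05 with the group alone). The B cell marker Ms4a1 had 2 reads in all 6 libraries together. Epithelial and tumour markers summed to 23.4 to 135 CPM in Biotin+ and 14.1 to 56.8 CPM in Biotin-. Of the 2 tested, none passed with the group alone and 1 was higher with the block. Krt8, Krt19, Cldn4 and Epcam had fewer reads in Biotin+ (0, 0, 0 and 219) than in Biotin- (5, 2, 14 and 249). Krt18, Cdh1 and Cldn7 had more (39, 3039 and 11 in Biotin+, 11, 1612 and 0 in Biotin-). The part of these markers in the results below was not tested, and in bulk RNA fewer cells of a type and less RNA per cell cannot be told apart.

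Most of the 32 members lay lower in the Biotin+ cells, but few passed the test after adjustment over all genes. In edgeR's quasi-likelihood test with the group alone, 2 members were lower in Biotin+ at a Benjamini-Hochberg adjusted p under 0.05, Oas2 and Oasl2, against 6.72% of all 13360 genes tested. One member, Isg20, was higher (3.13% of the members), against 1.53% of all genes, and the other 29 did not pass. Together 9.38% of the members were called, against 8.26% of all genes, so the share of calls among the members was near the background. At an unadjusted p under 0.05 in the same test, 10 of the 32 members were lower and 1 was higher. Of all 13360 genes, 1862 were lower and 1152 higher at that cut. The 10 were 2 IFIT genes, 3 OAS genes, 2 sensors, 0 of the ISG15 system and 3 other members. The median log2 fold change of the members was -0.62, with a range of -2.27 to 1.06, against 0.06 over all genes tested. A negative log2 fold change was found in 27 members (84.4%), against 44.7% of all genes, and 29 members lay below the median of all genes. Summed over the 32 genes, the Biotin+ libraries 1, 2 and 3 had 716, 701 and 667 CPM, against 794, 781 and 957 CPM in the Biotin- libraries. These sums did not overlap, but the members with the most reads decide them.

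**Figure D1:**
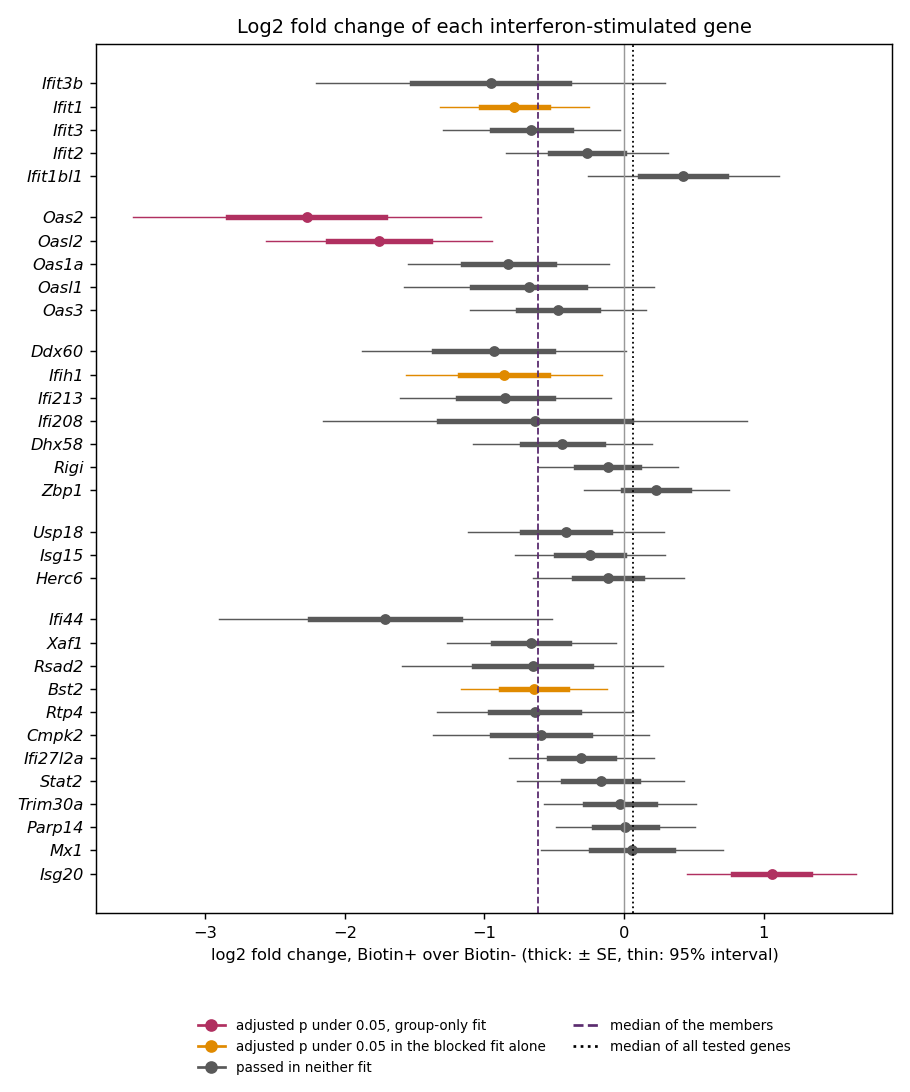
Log2 fold change of each member, Biotin+ over Biotin-, from the group-only fit, with ±1 SE as thick bars and the 95% interval as thin bars. Red marks the 3 genes that passed in that fit (Oas2, Oasl2, Isg20), orange the 3 that passed only with the replicate block (Ifit1, Ifih1, Bst2), and most points lie left of the dotted median of all genes at 0.06.

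The labels state no pairing of the libraries. Libraries with the same replicate number deviated together from their group means (r = 0.366, 0.263 and 0.393 for numbers 1, 2 and 3), and they were treated as pairs on that ground. For different numbers r was -0.276 to -0.0721. Deviations from a group mean cancel out within the group, so positive values for the same number push the others to negative ones. The negative values are therefore no separate support for the pairing. With the replicate number as a block, edgeR called 5 members lower, adding Ifit1, Ifih1 and Bst2 to Oas2 and Oasl2, and Isg20 again as the one higher. That is 15.6% of the members called lower, against 12% of all genes, which the same fit called higher in 5.6%. Within the pairs, 16 members (50%) were lower in Biotin+ in 3 of 3 pairs, against 24% of all genes. Only Isg20, Zbp1 and Ifit1bl1 were higher in every pair, a pattern shown by 26.8% of all genes, and when scaled on CD8 identity genes Zbp1 and Ifit1bl1 turned negative (log2 fold changes of -0.51 and -0.27). The median log2 ratio of the members was -0.29 in pair 1, -0.46 in pair 2 and -0.70 in pair 3, against 0.05, -0.01 and 0.06 over all genes.

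The OAS genes encode sensors of double-stranded RNA that make an oligoadenylate messenger for the nuclease RNase L, together with OAS-like relatives. All 5 lie on chromosome 5. Their median log2 fold change was -0.83, the lowest of the 5 groups of members. Both genes called lower among the members belong here, and the other 3 OAS genes did not pass. Oas2, one of the synthetases, had 2.05, 0.563 and 1.39 CPM in Biotin+ libraries 1 to 3, against 3.70, 5.65 and 10.2 CPM in Biotin- libraries. Every Biotin+ library was below every Biotin- library, and replicate 2 was the lowest of Biotin+, with only 9 reads. Oas2 thus differed by -2.27 ± 0.56 on the log2 scale (SE; edgeR adjusted p = 0.0337, and 0.00368 with the replicate block). Oasl2, an OAS-like protein with ubiquitin-like domains, had 5.45, 2.69 and 5.21 CPM in Biotin+ and 11.9, 12.9 and 20.4 CPM in Biotin-. Again the groups did not overlap, with replicate 2 lowest in Biotin+ and replicate 3 highest in Biotin-. The difference of Oasl2 was -1.76 ± 0.37 on the log2 scale (SE; edgeR adjusted p = 0.018, and 0.00052 with the replicate block).

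Both OAS calls rest on particular libraries. Without Biotin+ replicate 2, the edgeR adjusted p was 0.0946 for Oas2 and 0.0566 for Oasl2, and without Biotin- replicate 3 it was 0.184 and 0.0984 in the same order. Oas2 also missed the threshold without Biotin- replicate 2 (edgeR adjusted p = 0.0662). Its log2 fold change stayed between -3.01 and -1.80 with libraries or replicate numbers left out, and that of Oasl2 between -2.08 and -1.48. Oas3, the largest synthetase and the member of the group with the highest mean CPM, had 15.2, 16.0 and 15.1 CPM in Biotin+ and 16.5, 16.9 and 30.8 CPM in Biotin-. The groups did not overlap, but only Biotin- replicate 3 stood well above the rest, and the log2 fold change of -0.47 ± 0.28 (SE) did not pass (edgeR adjusted p = 0.367). Log2 fold changes of the last 2 OAS genes were -0.83 ± 0.33 (SE) for Oas1a and -0.68 ± 0.41 (SE) for Oasl1, which holds back translation of Irf7 in mouse (edgeR adjusted p = 0.158 and 0.36). Of the stretches of 75 bases in the Oas1a exons, 47.6% also occur in Oas1g, so reads of these neighbours may be split or dropped by the counting and the Oas1a level is uncertain.

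**Figure D2:**
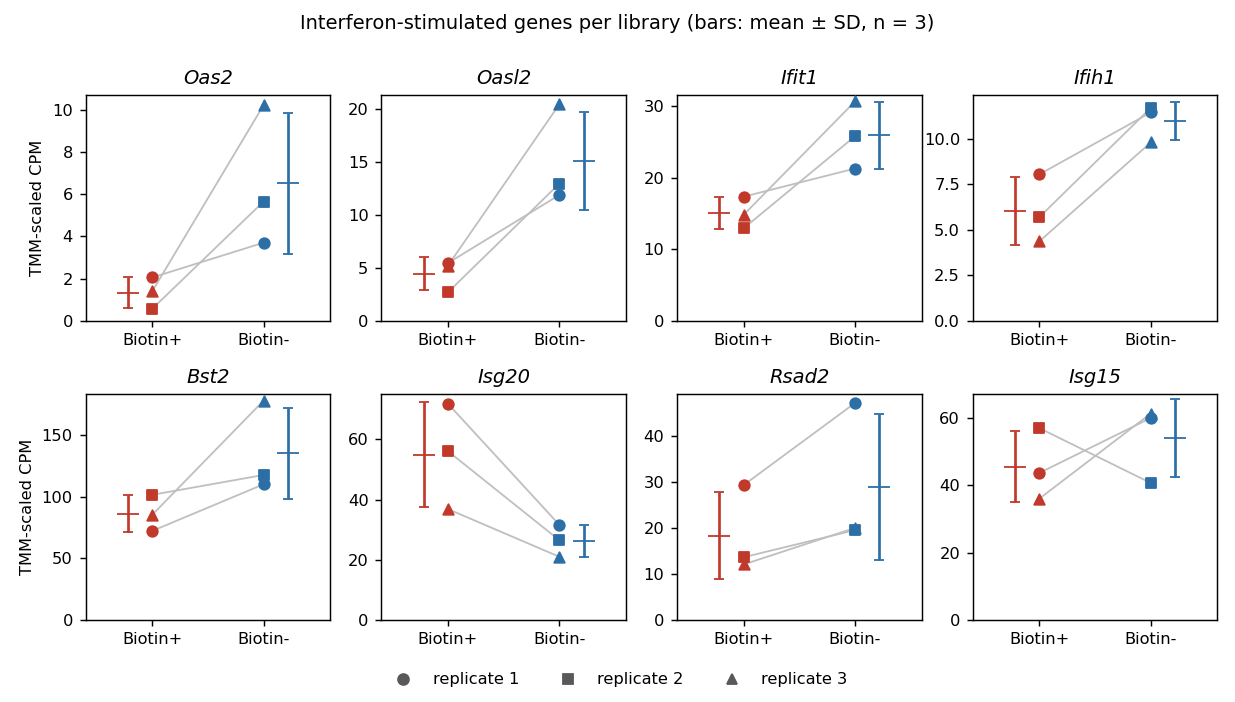
CPM of 8 members in each of the 6 libraries, Biotin+ left of Biotin-, with lines joining libraries of the same replicate number and bars for the mean and SD of 3. Oas2, Oasl2, Ifit1, Ifih1 and Bst2 are lower in each Biotin+ library than in any Biotin- library, Isg20 is higher in each, and Rsad2 is highest in replicate 1 of both groups.

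The IFIT genes, all on chromosome 19, encode proteins with tetratricopeptide repeats that bind viral RNA or RNA with foreign caps and hold back its translation. None of the 5 passed with the group alone in edgeR (2 lower at an unadjusted p under 0.05), and their median log2 fold change was -0.66. Ifit1, which recognises RNA lacking the host's cap methylation, had 17.4, 12.9 and 14.8 CPM in Biotin+ and 21.3, 25.8 and 30.7 CPM in Biotin-. The groups did not overlap. For Ifit1 the log2 fold change was -0.79 ± 0.24 (SE; 95% interval -1.32 to -0.25), with an edgeR adjusted p of 0.0756 with the group alone and of 0.0319 with the replicate block. Ifit3, a partner of the other IFIT proteins, had 11.6, 13.9 and 16.4 CPM in Biotin+, against 14.6, 26.7 and 25.1 CPM in Biotin-. Only Biotin- replicate 1 lay within the Biotin+ range, and the difference of -0.66 ± 0.29 (SE, log2 scale) did not pass (edgeR adjusted p = 0.198). Ifit3 and its copy Ifit3b share 41.1% and 35.7% of their 75-base stretches, so that their separate levels are uncertain. Ifit2 differed by a log2 fold change of -0.26 ± 0.26 (SE), Ifit3b of -0.96 ± 0.56 (SE) and Ifit1bl1, the one IFIT gene with a positive value, of 0.42 ± 0.31 (SE), and none passed in edgeR (adjusted p = 0.604, 0.356 and 0.459). The IFIT genes together summed to 53.8 ± 3.99 CPM in Biotin+, against 74.4 ± 8.36 CPM in Biotin- (mean and SD of 3 libraries).

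The sensors are the helicases Rigi, Ifih1 (MDA5) and Dhx58 (LGP2), which detect viral RNA and signal through or modulate the adaptor MAVS, the related helicase Ddx60, the nucleic acid sensor Zbp1, and the PYHIN family members Ifi208 and Ifi213. None of the 7 passed with the group alone in edgeR (2 lower at an unadjusted p under 0.05), 1 passed with the block, and 6 had a negative log2 fold change, with a median of -0.64. Ifih1 had 8.04, 5.69 and 4.36 CPM in Biotin+ and 11.4, 11.7 and 9.78 CPM in Biotin-. The Biotin+ libraries were all below the Biotin- libraries, which were close to each other. The log2 fold change of Ifih1 was -0.86 ± 0.32 (SE), with an edgeR adjusted p of 0.133 with the group alone and of 0.0386 with the block. Zbp1, which also starts necroptosis, had the highest mean CPM of the sensors. It had 56.2, 82.1 and 81.0 CPM in Biotin+ and 50.4, 57.7 and 78.7 CPM in Biotin-, ranges that overlap. On the log2 scale the difference was 0.23 ± 0.24 (SE; edgeR adjusted p = 0.612), with a 95% interval of -0.29 to 0.75. Rigi had -0.12 ± 0.23 (SE) on the same scale, Dhx58 -0.44 ± 0.29, Ddx60 -0.93 ± 0.43, Ifi208 -0.64 ± 0.69 and Ifi213 -0.85 ± 0.34. Ifi208 and Ifi213 share 11.8% and 8.07% of their 75-base stretches with other genes, mostly each other, which makes their separate levels less certain.

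Isg15 encodes a ubiquitin-like modifier, Usp18 the protease that removes it and damps the interferon receptor, and Herc6 the mouse ligase that attaches it. None of the 3 passed in either edgeR fit, and none had an unadjusted p under 0.05. Isg15, the one with the highest mean CPM, had 43.7, 57.1 and 36.1 CPM in Biotin+ and 60.1, 40.7 and 61.4 CPM in Biotin-. The highest Biotin+ library and the lowest Biotin- library were both replicate 2, so the ranges overlapped and pair 2 ran against the others. The difference on the log2 scale was -0.25 ± 0.24 (SE; edgeR adjusted p = 0.603), with a 95% interval of -0.78 to 0.29. Usp18 had -0.42 ± 0.32 and Herc6 -0.11 ± 0.24 (SE) on the same scale.

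The other 12 members hold the one gene that was higher in Biotin+ cells. Isg20, a nuclease that degrades single-stranded RNA, had 71.8, 56.1 and 36.8 CPM in Biotin+ and 31.6, 26.5 and 21.0 CPM in Biotin-. The groups did not overlap, and within each group replicate 1 was the highest and replicate 3 the lowest. Isg20 was higher by 1.06 ± 0.27 on the log2 scale (SE; edgeR adjusted p = 0.0397, and 0.00206 with the replicate block). The call is fragile with the group alone: without Biotin+ replicate 1 or 2, or without Biotin- replicate 1, 2 or 3, the edgeR adjusted p was 0.101, 0.108, 0.0689, 0.132 and 0.177 in that order. None of the 3 windows at Isg20 transcript starts held the ISRE letters.

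Bst2, or tetherin, which holds budding virus particles at the cell surface, had 72.2, 102 and 85.3 CPM in Biotin+ and 110, 118 and 178 CPM in Biotin-. All Biotin+ libraries were below all Biotin- libraries, and Biotin- replicate 3 was the highest of the 6. This gave a log2 fold change of -0.65 ± 0.24 (SE), with an edgeR adjusted p of 0.129 with the group alone and of 0.0415 with the block. Ifi44 had 1.13, 1.06 and 0.848 CPM in Biotin+ and 1.75, 4.39 and 3.89 CPM in Biotin-. These low levels did not overlap between the groups, but the log2 fold change of -1.71 ± 0.54 (SE) did not pass in either edgeR fit (adjusted p = 0.082 and 0.0543). Xaf1, a partner of the apoptosis inhibitor XIAP, was the last of the 8 members whose Biotin+ range lay wholly below that of Biotin- (log2 fold change -0.66 ± 0.27 SE, edgeR adjusted p = 0.179). Those 8 are 25% of the members, and 15.9% of all genes had ranges placed in that way. One member, Isg20, had its Biotin+ range wholly above, against 13.4% of all genes, and 23 overlapped.

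Of the remaining members, Stat2, the transcription factor of the interferon-activated complex, had a log2 fold change of -0.17 ± 0.27 (SE), Parp14, an ADP-ribosyltransferase, of 0.01 ± 0.23 and Trim30a of -0.03 ± 0.25. Mx1, a GTPase against influenza virus that is non-functional in C57BL/6 mice, had 0.06 ± 0.29 on that scale. Ifi27l2a had -0.30 ± 0.23, Rtp4 -0.64 ± 0.32 and Cmpk2, a mitochondrial nucleotide kinase beside Rsad2, -0.59 ± 0.35. None of these 7 passed in either edgeR fit.

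Rsad2, or viperin, which makes a chain-terminating nucleotide, was the one member called for a difference between replicate numbers, and it was not called between the groups. It had 29.3, 13.6 and 12.1 CPM in Biotin+ libraries 1 to 3 and 47.2, 19.5 and 20.0 CPM in Biotin- libraries 1 to 3. Replicate 1 was the highest in both groups, and each Biotin+ library was lower than its Biotin- partner. In the model with group and number, replicate 2 lay below replicate 1 by a log2 difference of -1.19 and replicate 3 by -1.26 (edgeR adjusted p over the replicate numbers = 0.0178). The replicate number was called for 2.69% of all genes. The group difference of Rsad2 had an edgeR adjusted p of 0.398 with the group alone and of 0.05001 with the block, just short of passing. Of the 10 macrophage and monocyte markers, 6 were highest in replicate 1 of Biotin+ and 4 in replicate 2, while all 10 were highest in replicate 1 of Biotin-. One of the 6, Lyz2, had 331, 305 and 110 CPM in Biotin+ and 939, 280 and 307 CPM in Biotin-. The replicate number was called for 5 of the 10, and their part in the Rsad2 pattern was not tested.

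**Figure D3:**
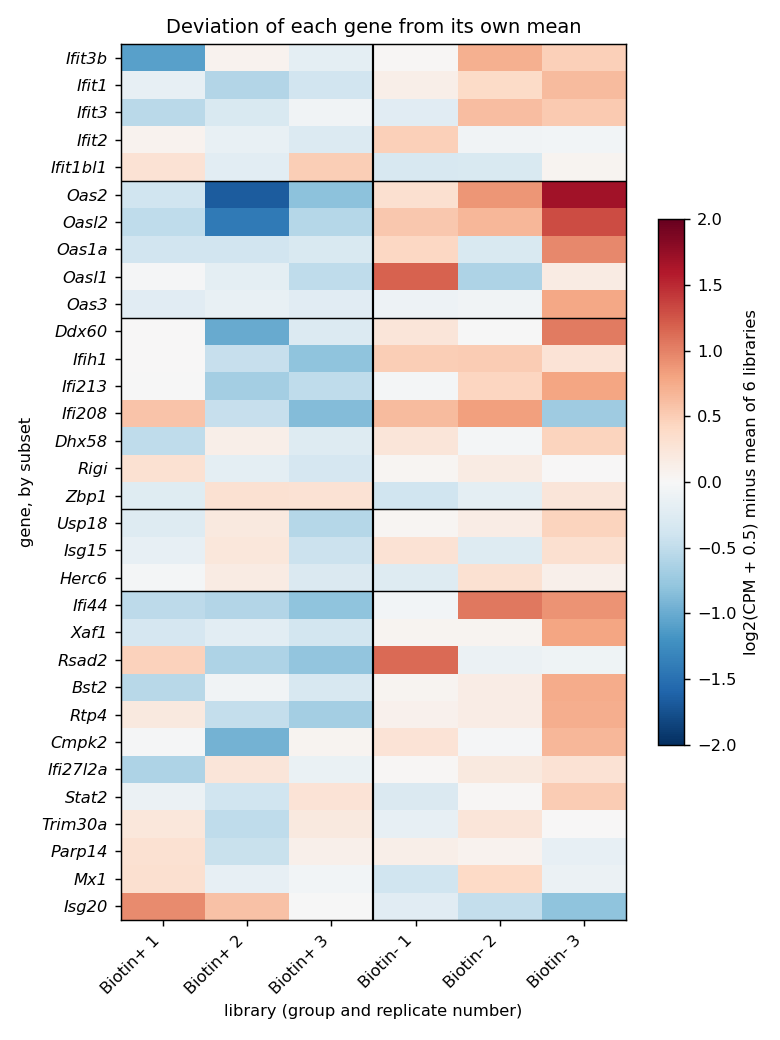
Log2(CPM + 0.5) of each member minus its own mean over the 6 libraries, with members as rows in their 5 groups and Biotin+ libraries left of Biotin- libraries. In 4 of the 5 OAS rows the lowest value is in a Biotin+ library and the highest in Biotin- replicate 3, whereas Isg20 runs the other way and Rsad2 follows replicate number 1.

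Levels can be compared between members only per length. In reads per kilobase of merged exon, scaled as CPM are (RPKM), the 3 members with the highest levels were the same in both groups. Ifi27l2a had 133 in Biotin+ and 165 in Biotin-, Bst2 95.6 in Biotin+ and 150 in Biotin-, and Isg15 60.4 in Biotin+ and 71.5 in Biotin-. Isg20 stood in place 4 in Biotin+ with 29.5 RPKM and in place 5 in Biotin- with 14.2 RPKM, changing places with Zbp1 (20.7 RPKM in Biotin+, 17.6 RPKM in Biotin-). Oas2 (0.30 RPKM in Biotin+, 1.47 RPKM in Biotin-) and Ifi44 (0.165 RPKM in Biotin+, 0.546 RPKM in Biotin-) were among the lowest. Over the 6 libraries, the RPKM ranges of 30 of the 31 neighbouring pairs in this order overlapped, the exception being Isg15 above Isg20.

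**Figure D4:**
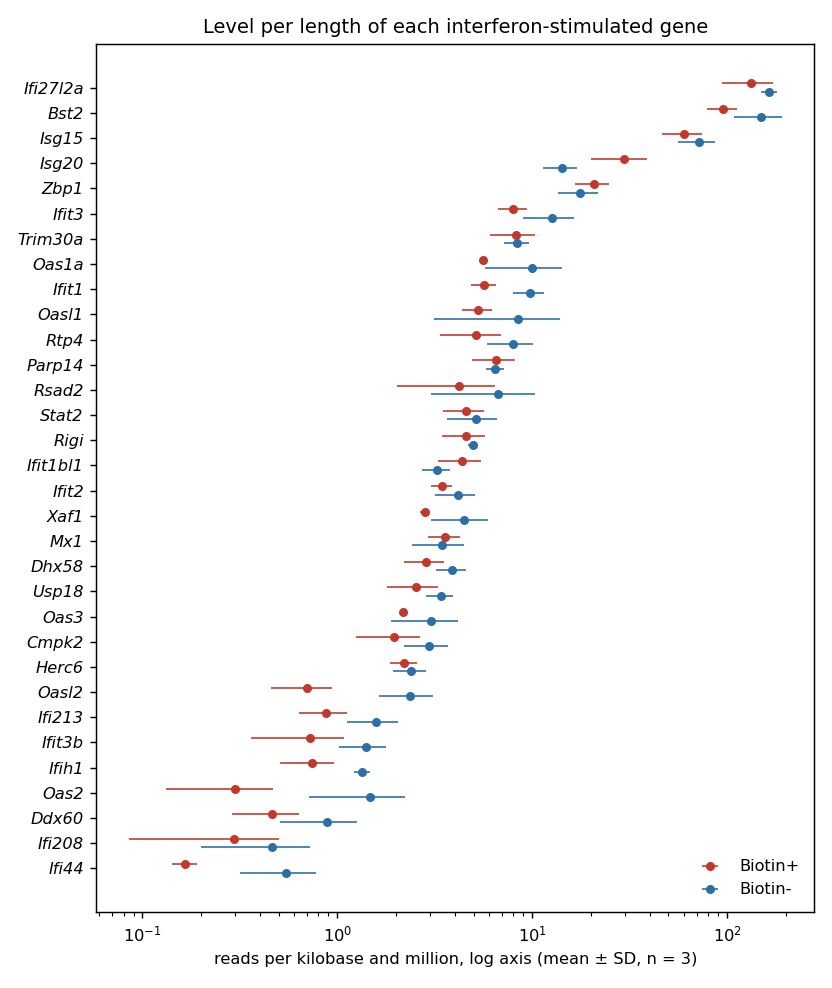
RPKM of the 32 members on a log axis, mean and SD of 3 libraries, in the order of their mean over all 6 libraries. Ifi27l2a, Bst2 and Isg15 head both groups, and the groups stand far apart for Oasl2, Oas2 and Ifi44 in the lower part of the list.

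The low values were mostly found among members under 30 CPM. A negative log2 fold change was found in 9 of 10 members under 10 CPM, 13 of 14 at 10 to 30 CPM and 5 of 8 at 30 CPM or more. Over all genes tested the shares were 59.7%, 48.1% and 29.7% in the same order. The 10 members with a mean under 10 CPM had a median log2 fold change of -0.90 and included both genes called lower, the 14 members at 10 to 30 CPM had -0.62, and the 8 members at 30 CPM or more had -0.07. Over all genes tested the medians in the same bands were -0.23, 0.03 and 0.17. In each band, then, the members lay below the genes of like level, and in both sets the low band lay lowest. The median log2 fold change was -0.65 in the 16 members with ISRE letters and -0.63 in the 8 with a window and no letters. The medians were thus alike, but the ranges were -0.96 to 0.42 with letters and -1.76 to 1.06 without. Oasl2 and Isg20 are both among those without letters. The 8 members with no window, Oas2 among them, had a median of -0.36.

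The scaling decides how the members read in absolute terms. When libraries were scaled on the median of the 15 CD8 identity genes instead of TMM, the median of all genes moved by -0.70 on the log2 scale, and edgeR called 20 members lower and 0 higher, against 25.5% and 0.217% of all genes. The log2 fold change of Isg20 was then 0.37 ± 0.30 (SE; edgeR adjusted p = 0.331). The members' median was -1.27, which is -0.63 from the median of all genes in that scaling, against -0.68 with TMM. New scaling factors shift all genes by nearly the same amount. That these distances are alike was therefore fixed in advance and is no support for the lower place of the members. Library size alone moved the median of all genes by -0.20. The other interferon lists described next took part in the common shift under identity gene scaling. Their medians there were -0.59 for receptors and JAK-STAT, -0.51 for adaptors, -0.75 for further interferon-stimulated genes and -0.67 for targets of interferon gamma.

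The rest of the pathway was described from lists of named genes. Of 21 interferon genes, 16 had no read in any library, which for each allows up to 3 reads per library, Ifna5, Ifnz and Ifnl3 had 3, 13 and 4 reads over all 6, and only Ifnb1 and Ifng were tested. Reads shared by several genes may have been dropped by the counting, so a gene without reads need not lack transcripts. Ifnb1, the interferon beta gene, had 3, 18 and 3 reads in Biotin+ and 77, 20 and 29 reads in Biotin-. Per library size the groups overlapped, since replicate 2 had 1.13 CPM in Biotin+ and 1.10 CPM in Biotin-, and the gene did not pass (log2 fold change -2.13 ± 0.87 SE, edgeR adjusted p = 0.177). Ifng, the interferon gamma gene of activated T cells, had 191, 431 and 260 CPM in Biotin+ and 97.9, 262 and 102 CPM in Biotin-. It was higher in Biotin+ in each pair and highest in replicate 2 of both groups, passing with the block (edgeR adjusted p = 0.000983) but not with the group alone (0.203).

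Among 13 tested genes of the receptors and the JAK-STAT chain, edgeR with the group alone called 1 lower and left 12 that missed the threshold, and the median log2 fold change was 0.07. The gene that fell was Ifngr2, a chain of the interferon gamma receptor, with 9.55 ± 0.370 CPM in Biotin+ and 21.7 ± 3.98 CPM in Biotin- (log2 fold change -1.19 ± 0.25 SE, edgeR adjusted p = 0.018). It missed the threshold when Biotin+ replicate 2, or Biotin- replicate 1 or 3, was left out. The block kept Ifngr2 as the one lower and called 2 higher, Ifngr1 and Tyk2. The type I receptor chains Ifnar1 (247 ± 46.4 CPM in Biotin+, 205 ± 43.8 CPM in Biotin-) and Ifnar2 (48.6 ± 6.66 CPM in Biotin+, 48.2 ± 5.84 CPM in Biotin-) had log2 fold changes of 0.27 ± 0.23 and 0.01 ± 0.20. Irf9 had -0.00 ± 0.21 on that scale and Irf7, which amplifies interferon production, -0.12 ± 0.22, and none of these 4 passed (edgeR adjusted p = 0.521 to 0.997). None of 11 adaptors and kinases of nucleic acid sensing passed with the group alone in edgeR (1 lower and 2 higher at an unadjusted p under 0.05), with a median of 0.20, and the block called Cgas higher and Tlr3 lower.

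A further 60 interferon-stimulated genes that are not members served as a neighbouring list, of which 56 were tested. In edgeR with the group alone 2 were lower, 0 higher and 54 missed the threshold, and the median log2 fold change was -0.04 with 30 negative values. Parp12, an ADP-ribosyltransferase, had 10.2 ± 1.5 CPM in Biotin+ and 30.4 ± 12.7 CPM in Biotin- (log2 fold change -1.57 ± 0.31 SE, edgeR adjusted p = 0.0151). Ifi211, a PYHIN gene, had 6.80 ± 0.766 CPM in Biotin+ and 15.9 ± 2.52 CPM in Biotin- (log2 fold change -1.23 ± 0.27 SE, edgeR adjusted p = 0.0222). Parp12 missed the threshold without Biotin+ replicate 2 or Biotin- replicate 3, and Ifi211 without these or Biotin- replicate 1. The block called 4 lower, adding Ifi204 and Ifi207, and 0 higher. Of 33 tested targets of interferon gamma, 1 was lower and 32 missed the threshold, and the median was 0.10. That gene was Cxcl10, a chemokine that draws T cells through CXCR3, with 60.1 ± 6.54 CPM in Biotin+ and 126 ± 21.5 CPM in Biotin- (edgeR adjusted p = 0.0123), a call lost without Biotin- replicate 3. With the replicate block, 5 of the 33 were lower (Cxcl10, Gbp2, Irgm1, Iigp1 and Tgtp1, the last 4 being GTPases induced by interferon gamma) and 3 higher (Psmb8 and Psmb9, subunits of the immunoproteasome, and Serpina3g, a serpin).

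**Figure D5:**
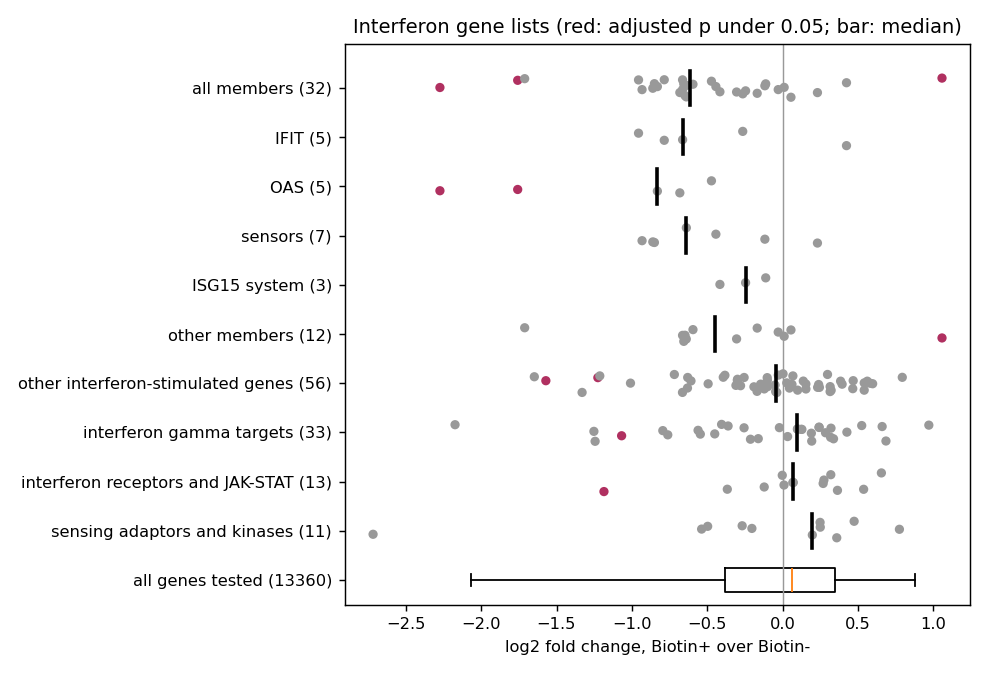
Log2 fold change, Biotin+ over Biotin-, with 1 dot per tested gene and a bar at each median. Rows show all members, their 5 groups, other interferon-stimulated genes, interferon gamma targets, receptors and JAK-STAT genes, and sensing adaptors and kinases. A box shows all 13360 genes, with whiskers from the 5th to the 95th percentile. With TMM scaling the member groups sit mostly below 0 (medians -0.25 to -0.83). The receptors, the adaptors and the other interferon lists sit near 0.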

How the data were processed

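Poly-A RNA of the 3 Biotin+ and 3 Biotin- CD8 T cell samples was purified on poly-T beads, and cDNA was primed with random hexamers, per the labels' protocols. The authors deposited raw counts of reads per gene symbol. Trim Galore 0.6.7, STAR 2.7.10a, Picard 1.14, featureCounts 2.0.1 and the GRCm39 build are named in the submitters' processing notes. The annotation, strand setting and treatment of reads shared by several genes were not given in the sources used here, so overlapping and near-identical genes are uncertain. Reads carry no molecular identifiers, so the bounds of 3 reads given for a count of 0 cover counting error only.

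Samples were grouped and numbered by their titles. The members, their groups and all other lists were chosen with earlier results of these data known. Genes that passed filterByExpr (minimum count 10) were tested with edgeR 4.0.16 in R 4.3.3: TMM scaling, robust quasi-likelihood F test, group alone, Benjamini-Hochberg over the 13360 genes, threshold 0.05. Replicates varied with a common biological coefficient of variation of 0.311. The SE was derived from the fold change and the F statistic. No 2 libraries of a group agreed within sampling noise (chi-square over its degrees of freedom was 35.6 to 103), and each was counted as 1 sample. Separate preparations from the same animal or pool could differ in this way too, so the libraries are not shown to be independent samples. The script was tested on simulated data. Alternatives were other scalings (DESeq2 size factors, upper quartile, library size alone, CD8 identity genes), other filters (none, or 1 CPM in 3 libraries), DESeq2 1.42.0, limma-voom 3.58.1, the replicate block, and leaving out each library or replicate number.

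Each library's value was to be given for members that passed the group-only fit, the block or the replicate-number test, and for the member with the highest mean CPM in each group. Of each other list, up to 4 called genes with the smallest p were named, together with Ifnar1, Ifnar2, Irf9 and Irf7, while 1 further gene is not reported here. Ifit3, Ifi44, Cd8a, Lyz2, Ifnb1, Ifng, Ifna5, Ifnz, Ifnl3, Ms4a1, Krt8, Krt18, Krt19, Cdh1, Cldn4, Cldn7, Epcam, Il3ra, Tcf4, Siglech and genes named for passing only with the block were given in addition after their values were seen. Exon lengths and shared 75-base stretches came from GENCODE M21 on GRCm38, and promoters from RefSeq on GRCm38.p6, another build than that of the counts.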

Additional observations from a re-analysis of the deposited data

How the results depend on the processing

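Members called lower in Biotin+ numbered 2 and higher 1, and their direction was the same in all fits described here for Oas2, Oasl2 and Isg20. The counts lower were 4 with no filter, 4 with DESeq2's Wald test, 1 with limma-voom, 20 with identity gene scaling and 5 with the replicate block. The count higher was 0 with library size alone and 0 with identity gene scaling. Identity gene scaling with the replicate block, chosen after seeing the data, gave 27 lower and 0 higher. The median log2 fold change was -1.27 under identity gene scaling, with or without the block, and -0.70 to -0.31 with libraries or replicate numbers left out. With those left out, 0 to 2 members were lower and 0 to 1 higher. The 1 member called for replicate number, Rsad2, became 0 with library size alone.

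Over all genes, 898 were lower and 205 higher. The replicate block gave 1599 and 748, no filter 1495 and 396, DESeq2's Wald test 1389 and 471, identity gene scaling 3408 and 29, and identity gene scaling with the block 6673 and 103. Library size alone gave 84 higher. With libraries left out, 239 to 1044 were lower and 23 to 200 higher.

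Some values that did not pass with TMM scaling changed sign. Under identity gene scaling, alone and with the block, the log2 fold change was -0.27 and -0.30 for Ifit1bl1, -0.51 and -0.47 for Zbp1, -0.61 and -0.63 for Mx1, -0.66 and -0.72 for Parp14, -0.39 and -0.42 for Ifnar1, and -0.68 and -0.70 for Ifnar2. With upper quartile scaling Mx1 had -0.022, Parp14 -0.066 and Ifnar2 -0.069, and with library size alone -0.13, -0.17 and -0.19. With DESeq2 size factors and its Wald test Parp14 and Ifnar2 had -0.011 each, and with no filter -0.033 and -0.032. Parp14 had -0.015 with limma-voom and -0.016 with the block, and Irf9 0.0028 with each. With libraries left out, the range was -0.26 to 0.013 for Herc6, -0.36 to 0.013 for Rigi, -0.36 to 0.078 for Stat2, -0.24 to 0.22 for Trim30a, -0.28 to 0.35 for Mx1, -0.15 to 0.17 for Parp14, -0.094 to 0.11 for Ifnar2, -0.39 to 0.095 for Irf7 and -0.14 to 0.11 for Irf9. For settings that kept the genes and samples the cause was not tested.

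With 3 libraries a group, a member that missed the threshold is not shown to be equal in the groups.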
